A study of Mus musculus with 2 samples.

Results

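The NF-κB system was examined in mouse embryonic fibroblasts (MEFs) through 10 genes, namely the subunits Nfkb1, Nfkb2, Rela and Relb, the inhibitors and feedback regulators Nfkbia, Nfkbiz and Tnfaip3, and the inducible genes Tnfaip2, Icam1 and Vcam1. Every probe set whose platform annotation gave exactly 1 symbol, and that symbol 1 of these 10, was included. This yielded 21 probe sets for 9 genes, of 45101 probe sets on the array and 18194 genes with at least 1 such probe set. No probe set carried Nfkb1 as its only symbol in the annotation used, so Nfkb1 was not analysed here. Cells came from a Bmi1 null line and a Bmi1 wild-type line, derived per the methods of the study from littermate embryos, given as male C57BL/6 in the labels, untreated, and both immortalised with a TBX2 expression construct, so that the wild-type control carries TBX2 as well. Bmi1 is a subunit of Polycomb repressive complex 1 that stimulates ubiquitylation of histone H2A. Each line is a single immortalised culture measured on 1 array, hence there is no replicate, no test and no p-value, and the effects of genotype, of the culture and of the array cannot be told apart. All differences are between these 2 arrays.

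NF-κB is a family of dimeric transcription factors made from Rel subunits. Rela and Relb carry a transactivation domain, whereas the Nfkb1 and Nfkb2 products p105 and p100 are precursors that also act as inhibitors until they are processed to p50 and p52. In resting cells IκB proteins such as IκBα (Nfkbia) hold the dimers in the cytoplasm, and cytokines such as TNF and IL-1 release them through the IκB kinase (IKK) complex. Several inhibitors are themselves induced by NF-κB and close the loop, and in fibroblasts and endothelium the pathway is known for the induction of chemokines and of adhesion molecules for leukocytes.

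Values are MAS5 signals, 1 linear intensity per probe set, scaled by the authors to the same trimmed mean of 500 on both arrays. Signals below a floor of 100 were set to 100, so that a ratio with 1 signal below it is a bound, and a probe set below the floor on both arrays was treated as not measured and given no ratio. Across all probe sets the median signal came to 90.1 on the null array and 84.8 on the wild-type array. The median log2 ratio of all 11766 measured genes, null over wild-type, was 0.006. Bmi1 itself read 2146 in null cells and 9933 in wild-type cells at its brighter probe set (4.63-fold lower), but 831 in null cells and 931 in wild-type cells at the other (1.12-fold lower), and the position of these probes relative to the deletion was not examined here. The Y-linked genes Eif2s3y, Uty and Kdm5d were below the floor in null cells (23.3, 26.5 and 15.3) and well above it in wild-type cells (1683, 1187 and 712), although the label of both lines is male. As a reading of RNA quality, the β-actin control gave a 3′ over 5′ ratio of 1.15 in null cells and 1.20 in wild-type cells. With 1 array per line no value below can be given without the array concerned.

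The regulatory sequence of the members was inspected first, since NF-κB dimers bind κB sites in the promoters of their own inhibitors and of their targets. RefSeq promoters (build GRCm38.p6) were at hand for 6 of the 10 members, Icam1, Nfkb2, Nfkbia, Rela, Tnfaip2 and Tnfaip3, with 9 annotated starts. In the 250 bases before the start, both strands were searched for a loose motif (GGG and CC with any 5 bases between them) and for the κB consensus (GGG, a purine, any base, A or T, a pair of pyrimidines, CC), which is contained in the loose motif and whose matches may overlap. The 3 promoters below are those that lie wholly before the annotated gene, and they belong to an inhibitor, a feedback enzyme and an adhesion target with different readings on the arrays. Capitals mark matches to the κB consensus.
Nfkbia, chr12:55492648-55492897, minus strand: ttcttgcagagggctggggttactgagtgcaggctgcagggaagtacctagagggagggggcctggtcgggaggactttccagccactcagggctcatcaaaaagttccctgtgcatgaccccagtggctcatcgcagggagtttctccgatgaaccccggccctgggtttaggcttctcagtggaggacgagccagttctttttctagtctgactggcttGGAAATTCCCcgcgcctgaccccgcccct
Tnfaip3, chr10:19015411-19015660, minus strand: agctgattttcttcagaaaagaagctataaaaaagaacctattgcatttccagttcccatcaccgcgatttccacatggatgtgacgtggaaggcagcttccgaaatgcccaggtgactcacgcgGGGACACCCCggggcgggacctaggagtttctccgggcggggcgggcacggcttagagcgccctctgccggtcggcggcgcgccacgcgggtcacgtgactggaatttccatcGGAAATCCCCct
Icam1, chr9:21015690-21015939, plus strand: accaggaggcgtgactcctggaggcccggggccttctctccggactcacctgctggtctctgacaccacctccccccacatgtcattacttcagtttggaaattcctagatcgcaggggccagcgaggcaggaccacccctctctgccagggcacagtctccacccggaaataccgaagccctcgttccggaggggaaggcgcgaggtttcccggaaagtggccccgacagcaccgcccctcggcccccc

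The Nfkbia window held 1 match to the κB consensus, GGGAATTTCC on the reverse strand, 29 bases before the start, counted at the end of the match farther from it. The Tnfaip3 window held 2, GGGACACCCC and, on the reverse strand, GGGGATTTCC, whereas the Icam1 window held 0. A window can hold a near match that these counts leave out. The Icam1 window holds tggaaattcc, which departs from the consensus only in its first base, T in place of G. Across the 9 windows the consensus occurred in 5, belonging to Nfkb2, Nfkbia and Tnfaip3, and each of the 3 Nfkb2 starts had at least 1. Of all 32851 promoters of the same length in the table, 3.90% held the consensus. The loose motif was found in 9 of the 9 windows but also in 45.8% of all promoters. These matches describe the letters of a window, not binding.

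As a group, the members read lower in Bmi1 null cells. Of the 9 genes with a probe set, 8 were measured, all of them above the floor on both arrays, and 7 of the 8 had a lower signal in null cells. Taking for each gene its brightest probe set (by mean log2 signal), Nfkbiz (4.57-fold) and Relb (2.70-fold) were at least 2-fold lower and 0 members were at least 2-fold higher. Of all measured genes, 5.16% were at least 2-fold lower, 5.73% at least 2-fold higher and 49.4% below a log2 ratio of 0. The median log2 ratio of the 8 genes was −0.79, against 0.006 over all measured genes. At 1.5-fold, 5 members were lower and 0 higher, against 12.0% and 12.5% of all measured genes. Of the 21 probe sets 19 were measured, of which 17 had a log2 ratio below 0 (background 51.2%), 6 at least 2-fold lower (background 5.10%) and 0 at least 2-fold higher (background 5.06%). These 19 are repeated readings of the 8 genes, not separate members, and the 6 belong to Nfkbiz, Vcam1 and Relb alone. The members were chosen with earlier results of these data known, so the background shares describe the arrays and test nothing. In cultures measured as a whole, fewer cells of a type and less RNA per cell cannot be told apart.

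**Figure D1:**
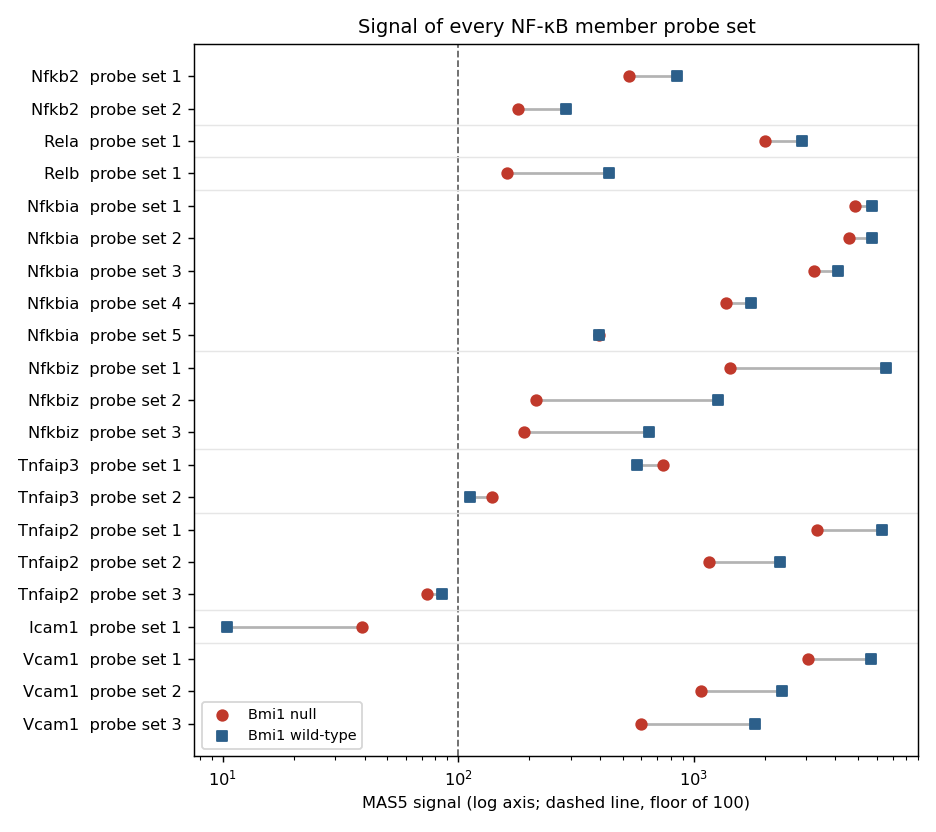
MAS5 signal (x axis, log scale) of all 21 member probe sets (y axis, numbered within a gene from the brightest), with Bmi1 null as red circles, wild-type as blue squares and the floor of 100 as a dashed line. Circles lie left of squares in all measured probe sets but those of Tnfaip3, and coincide with the square in the fifth Nfkbia probe set, and Icam1 and the third Tnfaip2 probe set lie left of the floor on both arrays.

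Because no replicate array exists, precision could only be described by how far probe sets of 1 gene differed in their log2 ratio, which leaves out the error of culture and hybridisation. Over 11916 pairs whose signals all exceeded the floor this SD was 0.30, and it was 0.34 for pairs whose dimmer probe set had a mean signal of 100 to 500, 0.26 for 500 to 2000 and 0.17 above 2000. These values serve below as the only yardstick for the size of a difference.

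Among the subunits, all 3 that could be read had lower signals in null cells, to different extents. Relb, the partner of p52 in the non-canonical pathway, read 162 in null cells and 436 in wild-type cells at its only probe set (1417856_at), a log2 ratio of −1.43. Only 2.71% of measured genes had a ratio this low or lower, but the null signal was close to the floor. Nfkb2, which encodes p100 and p52, had a pair of probe sets that gave almost the same ratio at different brightness. The first (1425902_a_at) read 530 in null cells and 853 in wild-type cells, and the second (1429128_x_at) 179 in null cells and 288 in wild-type cells, with log2 ratios of −0.69 and −0.68 (both 1.61-fold lower). Rela, which encodes p65, the main activating subunit, read 2009 in null cells and 2894 in wild-type cells at its single probe set (1419536_a_at), 1.44-fold lower (log2 ratio −0.53). Nfkb2 and Rela thus stayed short of 2-fold, with 9.48% and 13.8% of measured genes at or below their ratios. Both ratios were larger in size than the SD between probe sets, which leaves out the error of culture and hybridisation.

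The inhibitors and feedback regulators did not share 1 behaviour. Nfkbiz encodes IκBζ, a nuclear member of the IκB family that acts with p50 on secondary response genes such as Il6 and Lcn2, and it differed most of all members. Its brightest probe set read 1429 in null cells and 6526.5 in wild-type cells (1417483_at). The next (1448728_a_at) read 214 in null cells and 1264 in wild-type cells, and the third (1457404_at) 190 in null cells and 648 in wild-type cells. All 3 were lower in null cells, by 4.57-fold, 5.90-fold and 3.41-fold, with log2 ratios of −2.19, −2.56 and −1.77. Of 2202 genes with at least 3 measured probe sets, 2.13% had all of them at least 2-fold lower, and 1.1% of all measured genes had a ratio at or below that of the brightest Nfkbiz probe set.

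Nfkbia, the classical cytoplasmic inhibitor and an immediate target of NF-κB, was nearly level by comparison. Its brightest probe set (1438157_s_at) read 4834 in null cells and 5720 in wild-type cells, and the next (1420088_at) 4582 in null cells and 5714 in wild-type cells. The third (1449731_s_at) read 3244 in null cells and 4107 in wild-type cells, and the fourth (1448306_at) 1368 in null cells and 1745 in wild-type cells. These are differences of 1.18-fold to 1.28-fold in the same direction, with log2 ratios between −0.35 and −0.24. The dimmest probe set (1420089_at) read 394.5 in null cells and 397 in wild-type cells (log2 ratio −0.0088), so the 5 probe sets spanned 0.34 on the log2 scale. The 3 brightest exceeded the SD of 0.17 for such bright pairs and the fourth the 0.26 of its class, while the dimmest stayed within its 0.34. Of measured genes, 28.2% had a ratio at or below that of the brightest.

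Tnfaip3 encodes A20, a ubiquitin-editing enzyme that shuts off signalling to IKK, and it was the only measured member with a higher signal in null cells. It read 741 in null cells and 572 in wild-type cells at one probe set (1433699_at) and 138 in null cells and 113 in wild-type cells at the other (1450829_at). The log2 ratios of 0.37 and 0.30 (1.29-fold and 1.23-fold higher) stood against SDs between probe sets of 0.26 and 0.34 at their brightness, and 20.9% of measured genes had a ratio at or above the first.

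**Figure D2:**
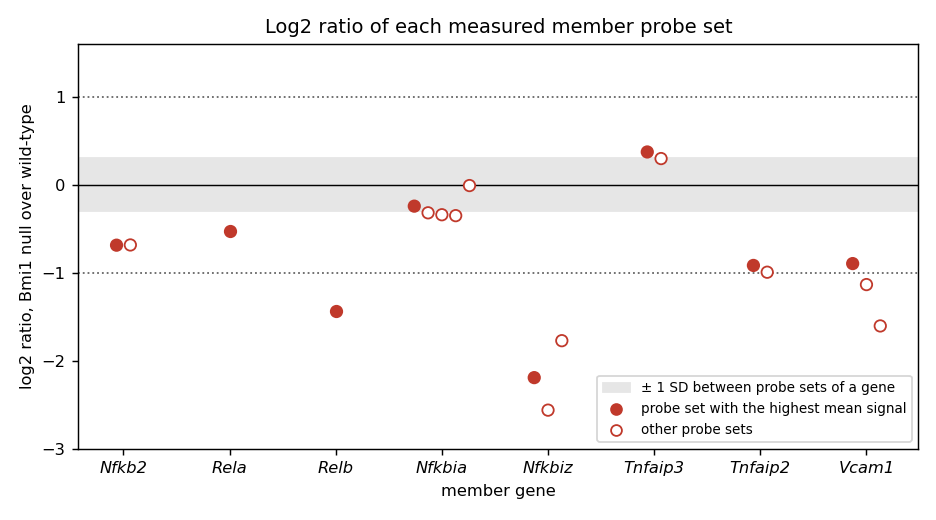
Log2 ratio, null over wild-type (y axis), of the 19 measured probe sets by member gene (x axis). Filled points are the probe set with the highest mean signal, open points the others, the grey band is 1 SD of 0.30 between probe sets of a gene on either side of 0, and dotted lines mark 2-fold. All 3 Nfkbiz points and the Relb point lie below the lower dotted line, the Vcam1 points straddle it, and the Tnfaip3 points lie above 0.

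Of the inducible genes, Vcam1 and Tnfaip2 were lower in null cells, by about the same factor at their brightest probe sets only, and Icam1 could not be read. Vcam1, the vascular cell adhesion molecule bound by the α4 integrins of leukocytes, gave 3047 in null cells and 5668 in wild-type cells at its brightest probe set (1448162_at). The next (1415989_at) read 1079 in null cells and 2367 in wild-type cells, and the third (1451314_a_at) 598 in null cells and 1817 in wild-type cells. All 3 were lower, but by unequal amounts (1.86-fold, 2.19-fold and 3.04-fold, log2 ratios of −0.90, −1.13 and −1.60), so that Vcam1 counts as at least 2-fold lower by 2 of its probe sets and not by the brightest. With the mean of the 3 the log2 ratio was −1.21. Which transcript forms these probe sets cover was not examined here.

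Tnfaip2, a TNF-inducible gene whose product promotes membrane protrusions, read 3328 in null cells and 6281 in wild-type cells at its brightest probe set (1438855_x_at), and 1164 in null cells and 2316 in wild-type cells at the second (1416273_at). Both stopped just short of 2-fold, at 1.89-fold and 1.99-fold lower (log2 ratios −0.92 and −0.99), and 5.92% of measured genes had a ratio at or below the first. The third probe set (1457918_at), at 73.4 in null cells and 85.1 in wild-type cells, was below the floor on both arrays. Icam1, the intercellular adhesion molecule bound by β2 integrins, has 1 probe set (1424067_at), which read 39.1 in null cells and 10.5 in wild-type cells. Both signals were below the floor, so no ratio is given, and transcript below this level was not detectable rather than shown to be absent.

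**Figure D3:**
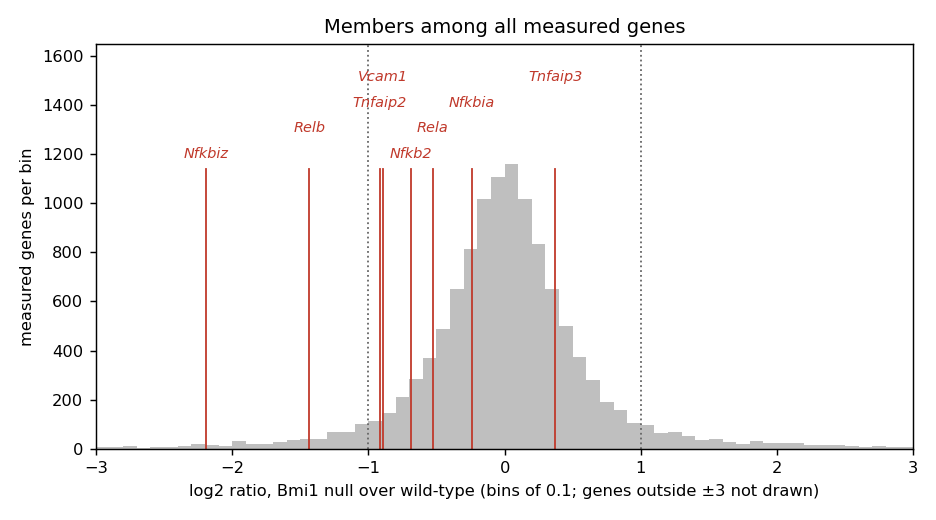
Number of measured genes (y axis) per bin of log2 ratio, null over wild-type (x axis, bins of 0.1), with the 8 measured members as red lines at the ratio of their brightest probe set and 2-fold as dotted lines. Nfkbiz lies at −2.19 and Relb at −1.43 in the lower tail, Tnfaip3 at 0.37 is the only member right of 0.

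The wider pathway was described with 7 lists of further genes by role, 90 genes in all, of which 84 were on the array with 1 symbol and 73 were measured. Of these, 19 were at least 2-fold lower in null cells and 3 at least 2-fold higher, against 5.16% and 5.73% of all measured genes, and their median log2 ratio was −0.35. The lists were chosen with earlier results of these data known, so the shares of all genes test nothing here. A gene above the floor on only 1 array could only read higher on that array. This holds for Cd40, Map3k8, Zc3h12a and Itgb7 on the wild-type array, among others, and for Icam4 and Itgal on the null array. The lists were uneven, since 10 of the 19 lower genes were secreted products.

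Upstream of NF-κB the lists held fewer genes past 2-fold than the secreted targets did. Of all measured genes, 5.16% were at least 2-fold lower and 5.73% at least 2-fold higher. Of 11 measured receptors and adaptors, 1 was at least 2-fold lower and 1 higher (median −0.05). Cd40, a TNF receptor family member that feeds the non-canonical pathway, read 59.6 in null cells, below the floor, and 777 in wild-type cells, at least 7.77-fold lower, and its 3 measured probe sets gave log2 bounds from −2.96 to −2.26. The TNF receptor Tnfrsf1b read 689 in null cells and 293 in wild-type cells (2.35-fold higher), although another of its probe sets had a log2 ratio of −0.24. Kinases of the IKK cascade had 9 of 10 measured genes lower in null cells, against 49.4% of all measured genes (median −0.35). Of the 10, 2 were past 2-fold, both lower in null cells. These were the IKK-related kinase Ikbke, at 249 in null cells and 581 in wild-type cells (2.33-fold), and Map3k8, a kinase that acts downstream of p105, at 48.1 in null cells and 312 in wild-type cells (at least 3.12-fold).

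The remaining Rel and IκB genes resembled the members in direction, as did most genes of every other list except the adhesion genes. In all lists together 56 of 73 measured genes read lower in null cells, against 49.4% of all measured genes. All 5 measured Rel and IκB genes had lower signals in null cells, with a median log2 ratio of −0.70, and 1 was at least 2-fold lower. This was Nfkbib, which encodes IκBβ, at 545 in null cells and 1271 in wild-type cells (2.33-fold), while Rel, the subunit of lymphoid cells, was below the floor on both arrays. Feedback regulators and deubiquitinases had 1 of 13 measured genes past 2-fold, which was lower in null cells (median −0.24). Zc3h12a, a ribonuclease that degrades inflammatory transcripts, read 57.7 in null cells, below the floor, and 471 in wild-type cells, at least 4.71-fold lower, with a bound of −0.42 on the log2 scale from its other probe set.

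Among targets, survival and stress genes had 3 of 10 past 2-fold, each lower in null cells (median −0.41). Ptgs2, the inducible cyclooxygenase, read 4455 in null cells and 10360 in wild-type cells (2.33-fold), the mitochondrial superoxide dismutase Sod2 2971 in null cells and 6747 in wild-type cells (2.27-fold), and Cflar, an inhibitor of caspase-8, 948 in null cells and 1992 in wild-type cells (2.10-fold). Other Cflar and Sod2 probe sets had log2 ratios as near to 0 as −0.66 for Cflar and, as a bound, −0.62 for Sod2. Gadd45b was the only measured gene of this list with a higher signal in null cells. It read 2234 in null cells and 1533 in wild-type cells (1.46-fold), with log2 ratios from 0.54 to 1.19 over its 3 probe sets. The secreted targets stood lowest of the 7 lists, with 10 of 14 at least 2-fold lower, 1 higher and a median of −1.47. Of the 10, Cxcl5, Cxcl10, Csf2, Csf3, Lcn2 and Mmp9 exceeded the floor only on the wild-type array, so they could only read lower. The same holds for Il6, which fell short of 2-fold. The rest of the 10 exceeded the floor on both arrays. The count and the median thus rest in part on bounds. The acute-phase protein Saa3 read 123 in null cells and 12730 in wild-type cells (104-fold), and the siderophore-binding Lcn2 27.0 in null cells and 2275 in wild-type cells (at least 22.8-fold). The chemokine Ccl2 read 1313 in null cells and 12845 in wild-type cells (9.78-fold), and the gelatinase Mmp9 95.6 in null cells and 895 in wild-type cells (at least 8.95-fold). The pattern-recognition protein Ptx3 went the other way, at 12494 in null cells and 5348 in wild-type cells (2.34-fold higher).

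Other adhesion molecules and the integrins that bind them went in both directions. Of 10 measured, 4 had a lower signal in null cells, 1 was at least 2-fold lower, 1 at least 2-fold higher and the median log2 ratio was 0.03. Among the genes not lower, 2 barely exceeded the floor, and only on the null array. These were Icam4, at 104 in null cells and 53.2 in wild-type cells, and Itgal, at 120 in null cells and 96.1 in wild-type cells. Mcam read 2323 in null cells and 158 in wild-type cells, 14.7-fold higher, at its only probe set, while the integrin subunit Itgb7 read 9.01 in null cells and 706 in wild-type cells, at least 7.06-fold lower. The other 3 lower genes and Alcam fell short of 2-fold at their brightest probe sets and were named after their values were seen. Itga4, the α4 subunit that pairs with β1 or β7 to bind Vcam1, read 427 in null cells and 755 in wild-type cells, and its 4 probe sets had log2 ratios from −1.46 to −0.34. Jam2, a junctional adhesion molecule, read 395 in null cells and 785 in wild-type cells (1.98-fold lower), with 5 probe sets from −0.99 to −0.09. Both ranges overlap that of the 3 Vcam1 probe sets. Itgb2 read 64.2 in null cells, below the floor, and 157 in wild-type cells (at least 1.57-fold lower). Alcam went the other way, at 598 in null cells and 318 in wild-type cells (1.88-fold higher), with 4 probe sets from 0.73 to 1.49. Icam2, Sele and Selp were, as Icam1, below the floor on both arrays.

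**Figure D4:**
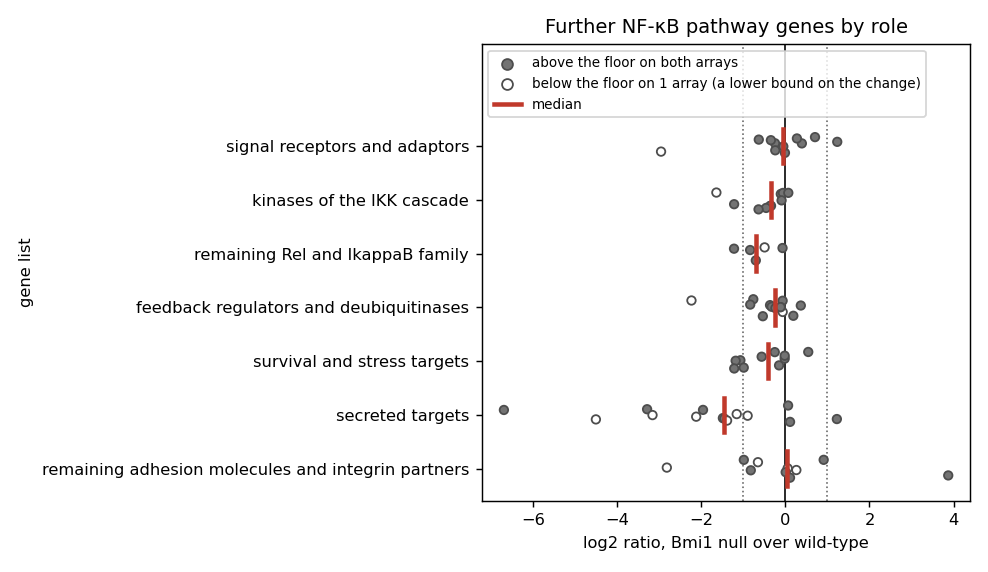
Log2 ratio, null over wild-type (x axis), of the measured genes of 7 lists by role in the pathway (y axis). Filled points exceeded the floor on both arrays, open points on only 1 so that the change is a lower bound, red bars are medians, and dotted lines mark 2-fold. The median of the secreted targets (−1.47) lies left of the dotted line, and that of the adhesion list (0.03) near 0.

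Vcam1 and Icam1 also mark endothelium, and inflammatory genes mark blood cells, hence markers of other cell types were read in the same samples. All 10 fibroblast markers were measured, and some differed strongly between the lines, in both directions, with 3 higher in null cells by 2-fold or more and 2 lower by as much. Col3a1 read 20209 in null cells and 4617 in wild-type cells (4.38-fold higher), Col1a1 14841 in null cells and 6860 in wild-type cells (2.16-fold higher), and Lum 729 in null cells and 68.0, below the floor, in wild-type cells. Pdgfra read 532 in null cells and 4952 in wild-type cells (9.31-fold lower), and Thy1 50.7, below the floor, in null cells and 375 in wild-type cells. The summed fibroblast signal was 103200 in null cells and 88120 in wild-type cells, and it is not higher in null cells once Col3a1 is left out. Of 8 endothelial markers 4 were below the floor on both arrays, among them the defining Pecam1, Tek and Tie1. Cdh5, likewise a defining marker, read 29.2 in null cells, below the floor, and 208 in wild-type cells (at least 2.08-fold lower, the direction of Vcam1), whereas Kdr read 206 in null cells and 150.2 in wild-type cells (1.37-fold higher). The summed endothelial signal was 515 in null cells and 548 in wild-type cells. Of 9 macrophage and blood cell markers 6 were below the floor on both, Ptprc, Cd68 and Itgam among them, while Cd14 read 453 in null cells and 1012 in wild-type cells. Adgre1 read 118 in null cells and 171 in wild-type cells. Csf1r read 213 in null cells and 244 in wild-type cells, with log2 ratios of −0.20 and 0.70 at its 2 measured probe sets. The summed macrophage and blood cell signal was 1057 in null cells and 1701 in wild-type cells. Of 8 mesothelial markers 4 were below the floor on both, namely Wt1, Krt8, Krt18 and Krt19, and 2 exceeded 2-fold upwards. Gpm6a read 8828 in null cells and 4.52 in wild-type cells, and Upk3b 1693 in null cells and 188 in wild-type cells, whereas Msln was lower, at 1031 in null cells and 3006 in wild-type cells. The summed mesothelial signal was 11900 in null cells and 3384 in wild-type cells. Gpm6a alone gave 8828 of the null sum, which is not the higher of the pair once Gpm6a is left out. The part of these marker differences in the results above was not tested.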

How the data were processed

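RNA of 1 Bmi1 null and 1 wild-type MEF culture, both immortalised with TBX2, was labelled from an oligo(dT) primer and hybridised to Affymetrix mouse genome arrays. The authors derived the deposited signal intensity with MAS5 and scaled each array to a common trimmed mean (2% cut at each end) of 500. Scaling of this kind hides any change that most transcripts share. Detection calls were not used here.

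Of 45101 probe sets, 34958 had 1 symbol, 932 several and 9211 none in the platform annotation. Signals below 0.2 times the trimmed mean (100) were set to that floor, and log2 ratios are null over wild-type. Folds against the floor are lower bounds. With 1 array per group no test was made, and intensity at single probe sets limits precision. Members and lists were chosen with earlier results of these data known. All members were named, and of each list up to 4 genes past 2-fold that reached 500 on 1 array, taken by size of difference, plus every gene of counts of 5 or fewer. Genes shown as below the floor, and cell type markers with their values, were named after their values were seen. Alternatives were other floors, a pseudocount, median centring, quantile normalisation, other choices of probe set and a 1.5-fold threshold. Python 3.11.15, numpy 2.4.6 and pandas 2.3.3 were used, and the ratio and floor steps were tested on simulated data.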

Additional observations from a re-analysis of the deposited data

How the results depend on the processing

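The median log2 ratio of the members stayed below 0 in all 8 alternatives, from −0.94 without probe sets of the suffixes _s_at, _x_at and _a_at (6 genes) to −0.60 with a pseudocount of 100 (9 genes). Relb and Nfkbiz were at least 2-fold lower in each of them. The count of members at least 2-fold lower was 2 in the reported setting, 5 at a 1.5-fold threshold and 3 with the mean of probe sets, where Vcam1 was added. The count at least 2-fold higher was 0, and 1 without a floor, where Icam1 had a log2 ratio of 1.90 from signals below 100 (0.33 with the pseudocount). The Relb ratio was −1.13 with a floor of 200 (0.4 times the trimmed mean) and −1.04 with the pseudocount. The median of the secreted targets ranged from −2.30 without a floor to −1.12 with a floor of 200. Among small lists, kinases at least 2-fold lower numbered 1 in place of 2 with the higher floor or the pseudocount. Rel and IκB genes lower numbered 2 in place of 1 without a floor and 0 without suffixed probe sets. Receptors lower numbered 0 in place of 1 without suffixed probe sets, and receptors higher 0 in place of 1 with the mean of probe sets. Adhesion genes higher numbered 2 in place of 1 without a floor or with the mean of probe sets, and 0 without suffixed probe sets, and adhesion genes lower 2 with a floor of 50 and 3 without a floor. No paired analysis was possible because each group has 1 array, and no array could be left out.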
